A study of Saccharomyces cerevisiae with 16 samples.

Results

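The columns described here are the 4 of 16 in the deposited table whose titles give Taf4 anchor away without rapamycin, 2 titled as steady-state RNA and 2 as newly synthesized RNA. They were chosen by title alone. The series measured RNA of budding yeast, Saccharomyces cerevisiae, on Affymetrix Yeast Genome 2.0 arrays, which also carry probe sets for fission yeast, Schizosaccharomyces pombe. It asked how much transcription depends on TFIID, the general transcription factor that holds the TATA-binding protein and its associated factors such as Taf4 and Taf5. The fractions were made by labelling cells with the modified base 4-thiouracil at 5 mM for 6 min, which marks RNA made during that time. Each S. cerevisiae sample was mixed with labelled wild-type S. pombe cells, 3 parts to 1, so that the second species serves as a spike-in.

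All 4 arrays share 1 genotype in the W303 background. It combines a rapamycin-resistant tor1-1 allele, fpr1::NAT, an anchor on the ribosomal protein Rpl13A written as RPL13A-2xFKB12::TRP1, and TAF4-FRB::HYGRO, in MATalpha cells. FRB on Taf4 and the FKBP12 anchor join when rapamycin is present, and the tagged protein then leaves the nucleus with the anchor. These cultures grew in YPD at 30 °C and received only the DMSO vehicle, so Taf4 carried its tag but was not depleted. The cultures with rapamycin used for comparison had the same genotype label and received rapamycin for 30 min, at 1 µg per mL by the protocol, while the series' design text gives another concentration. The labels do not say whether the 2 replicates of a fraction came from separate cultures, and the p-values therefore reflect array-to-array spread alone, which may be technical.

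The amount of an mRNA in total RNA depends on how fast it is made and how long it lasts, while RNA labelled in a short pulse depends mostly on how fast it is made. In yeast, mRNAs for ribosomal proteins, glycolytic enzymes, translation elongation factors, the respiratory chain and actin are textbook examples of long-lived messages. Messages for transcription factors, cyclins and ribosome assembly factors are known for short lives. By this background, the long-lived families should take a larger share of total RNA than of labelled RNA, and the short-lived ones a smaller share.

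The fraction labels of these scans are not settled within the deposit. The table has 10 distinct scans in its 16 columns, since 6 columns titled Taf5 repeat a Taf4 scan divided by 5, to within 0.001 signal units. Both Taf4 steady-state scans without rapamycin recur under Taf5 titles as newly synthesized RNA, and newly synthesized replicate 1 recurs as steady-state RNA. That makes 3 of the 4 arrays with opposite fraction labels under the 2 titles. The samples are named here by their Taf4 titles, as steady-state-labelled and newly-synthesized-labelled arrays. Every difference is the steady-state label minus the newly synthesized label on the log2 scale, after each array was set to its median S. cerevisiae gene, so the sign would turn if the Taf5 titles of the recurring scans were followed.

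The long-lived families were lower, not higher, in the arrays labelled steady-state. Of 194 tested genes in the 5 families known for long-lived messages, 189 were lower in the steady-state label, none was higher by the limma test, and their median difference was -1.30. The 4 lists set as short-lived were the families named above and mitochondrial ribosomal proteins. The last held 66 tested genes, 21 lower and 13 higher, with a median of -0.12. Of 260 tested genes in the 4 lists together, 51 were lower and 83 were higher, with a median of 0.11. These counts depended on the scaling: the long-lived genes had 84 lower and 12 higher with quantile scaling, 77 and 26 with a curve through signal level, and 51 and 54, with a median of 0.017, with a curve through the S. pombe probe sets, while the short-lived ones had 28 and 143, 30 and 133, and 44 and 144. Over all 4359 tested genes, 1644 were lower, 37.7% of those tested, and 984 were higher, 22.6%, at an adjusted p under 0.05, and the median was -0.11. In the main scaling, the order of these 2 classes was the one that the background gives for newly-synthesized-labelled arrays holding total RNA and steady-state-labelled arrays holding labelled RNA. It is the order that the Taf5 titles of the same scans would give. Neither set of labels was changed here, and the reason for the disagreement was not tested.

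Each S. cerevisiae list is given under 4 scalings, because the difference also moved with signal level. The gap between the long-lived and short-lived medians was -1.42 in the main scaling and had the same sign under each alternative, at -0.64 with quantile scaling, -0.51 with a curve through signal level, and -0.43 with a curve through the S. pombe probe sets. With that last curve, followed by equal S. cerevisiae medians, the long-lived median of 0.017 was not below that of all tested genes, -0.030. The short-lived median there was 0.44. The counts of calls moved more. Quantile scaling gave 1154 lower and 1371 higher, the curve through level 1163 and 1285, and the S. pombe curve, followed by equal S. cerevisiae medians, 1375 and 1268. Scalings that do not set S. cerevisiae medians equal moved the median gene up: with equal S. pombe medians the median difference was 1.27 and 112 genes were lower against 3624 higher, with the S. pombe curve alone it was 1.75 with 13 lower and 4157 higher, and with signals as deposited it was 0.84 with 363 and 3194. The count of higher genes fell to 631 without steady-state replicate 2 and to 645 without newly synthesized replicate 1.

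**Figure D1:**
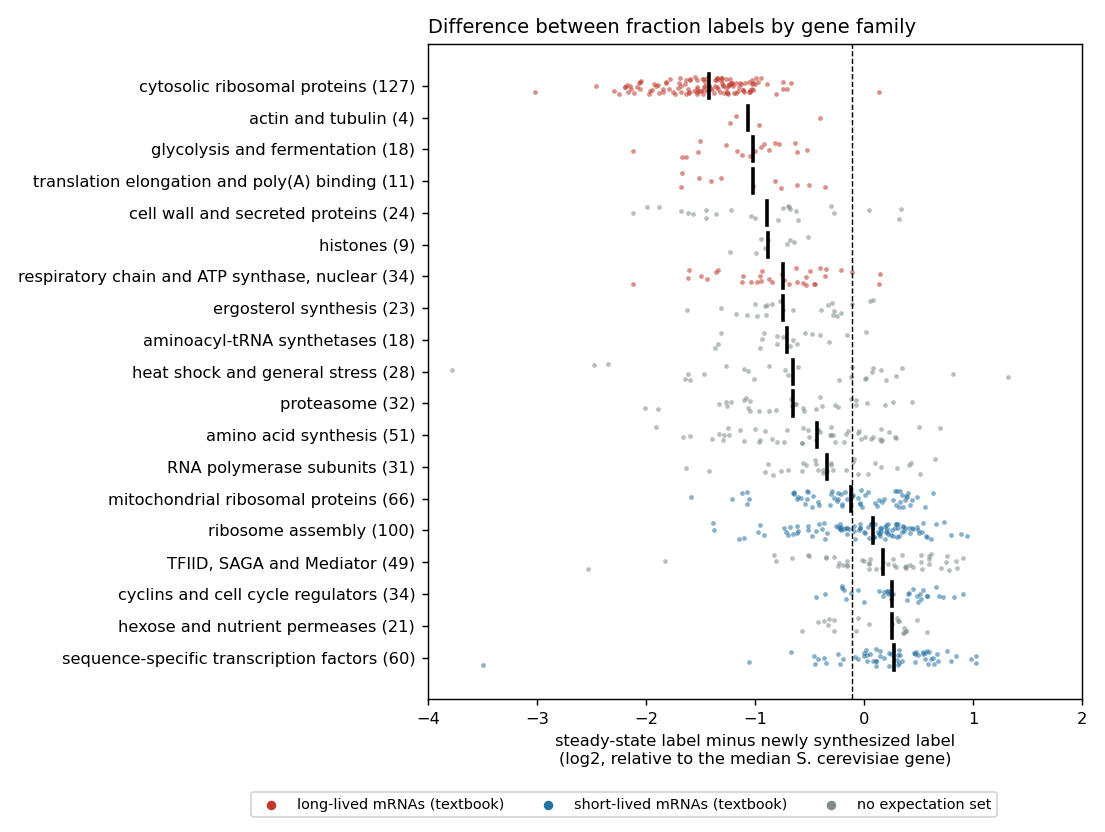
Difference between the steady-state and the newly synthesized label (log2, relative to the median S. cerevisiae gene, x axis) for each tested member of 19 gene families, 1 point a gene, with the family median as a black bar, the number of members in parentheses and the median of all tested genes as a dashed line. Ribosomal protein genes sit around -1.42, and transcription factor genes around 0.27.

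Genes for cytosolic ribosomal proteins, the protein part of the ribosome, had the lowest median of the long-lived families in the main scaling. All 127 on the array passed the filter on low signals. Their median signal, on the log2 scale relative to the array's median gene, was 3.48 on each of the steady-state-labelled arrays, and 5.03 and 4.92 on the newly-synthesized-labelled arrays. The steady-state label was lower for 126 of the 127, and the differences ran from -3.02 to 0.14 with a median of -1.42. Both steady-state-labelled arrays lay below both others for the same number, 126, where 48.0% of all tested genes did so. The median became -0.26 with quantile scaling, -0.21 with the curve through level and -0.01 with the S. pombe curve, and the counts then were 56 lower and 4 higher, 54 and 12, and 33 and 30. Near-identical paralogs are common in this family, and how far their probe sets share signal was not tested.

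RPS0B, a protein of the small ribosomal subunit, had relative signals, meaning signal divided by the array's S. cerevisiae median, of 2.57 and 1.79 in the steady-state label and 17.98 and 16.81 in the newly synthesized label. The groups lay far apart, and the difference was -3.02 (SE 0.23, limma adjusted p = 2.2e-05). RPS17A, also of the small subunit, stood at 17.9 and 19.2 against 51.98 and 46.9. The newly-synthesized-labelled arrays were again the higher ones, with a difference of -1.41 that was -0.25 (limma adjusted p = 0.06) with quantile scaling, 0.054 with the curve through level and 0.21 with the S. pombe curve. RPS31, which encodes a small-subunit protein fused to ubiquitin, was among the brightest members, with 23.1 and 28.6 against 56.0 and 49.3. Its difference of -1.03 turned to 0.022, 0.50 and 0.59 under the quantile, level and S. pombe scalings.

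Glycolysis and fermentation genes were lower in the steady-state label for all 18 members tested, with a median of -1.02 that was -0.20 with quantile scaling but 0.016 and 0.23 with the level and S. pombe curves. PGK1, phosphoglycerate kinase and a classical stable mRNA, had relative signals of 9.91 and 9.44 in the steady-state label against 30.4 and 29.7. The arrays did not overlap, and the difference was -1.64 (SE 0.15, limma adjusted p = 2.7e-05). It was -0.19 with the S. pombe curve, where the call was lost (limma adjusted p = 0.192). TDH3, glyceraldehyde-3-phosphate dehydrogenase, stood at 18.1 and 16.7 against 51.0 and 49.2, a difference of -1.53 that was -0.066 (limma adjusted p = 0.634) with the level curve and 0.10 with the S. pombe curve. CDC19, pyruvate kinase, had 20.5 and 23.3 against 47.0 and 43.2, and its difference of -1.04 became 0.12, 0.42 and 0.58 under the 3 other scalings.

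The elongation factor and poly(A)-binding list had 11 of 14 names on the array, and all 11 were lower, with a median of -1.01 that was -0.092, -0.19 and 0.016 under the quantile, level and S. pombe scalings. EFB1, the nucleotide exchange factor of elongation factor 1, had relative signals of 13.5 and 12.9 in the steady-state label and 40.2 and 35.6 in the newly synthesized label, a difference of -1.52. Its call was lost in the other 3 scalings, at -0.27, -0.19 and -0.0031 (limma adjusted p = 0.0592, 0.134 and 0.985). TEF2, which encodes elongation factor 1 alpha and shares its sequence with TEF1, had 22.1 and 26.9 against 49.4 and 49.0, a difference of -1.01 that turned to 0.10, 0.49 and 0.61 under the quantile, level and S. pombe scalings. The 4 actin and tubulin genes were all lower, with a median of -1.07 that was -0.265, -0.20 and 0.0065 under the other 3 scalings. ACT1, actin, stood at 13.7 and 15.6 against 33.8 and 32.02. Its difference of -1.17 (SE 0.16, limma adjusted p = 0.00013) became 0.0907, 0.0797 and 0.27 under the other 3 scalings. TUB2, beta-tubulin, had 3.87 and 3.73 against 8.33 and 9.59, a difference of -1.23 that was -0.29 with the S. pombe curve, where the call was lost (limma adjusted p = 0.0589).

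Nuclear genes of the respiratory chain and ATP synthase were lower for 30 of 34 and higher for none, with a median of -0.74 that was -0.28, -0.12 and 0.094 under the quantile, level and S. pombe scalings. ATP1, the alpha subunit of the ATP synthase, had relative signals of 10.52 and 10.75 in the steady-state label against 20.02 and 20.67. Its difference of -0.94 turned to 0.27, 0.18 and 0.39 under the quantile, level and S. pombe scalings.

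**Figure D2:**
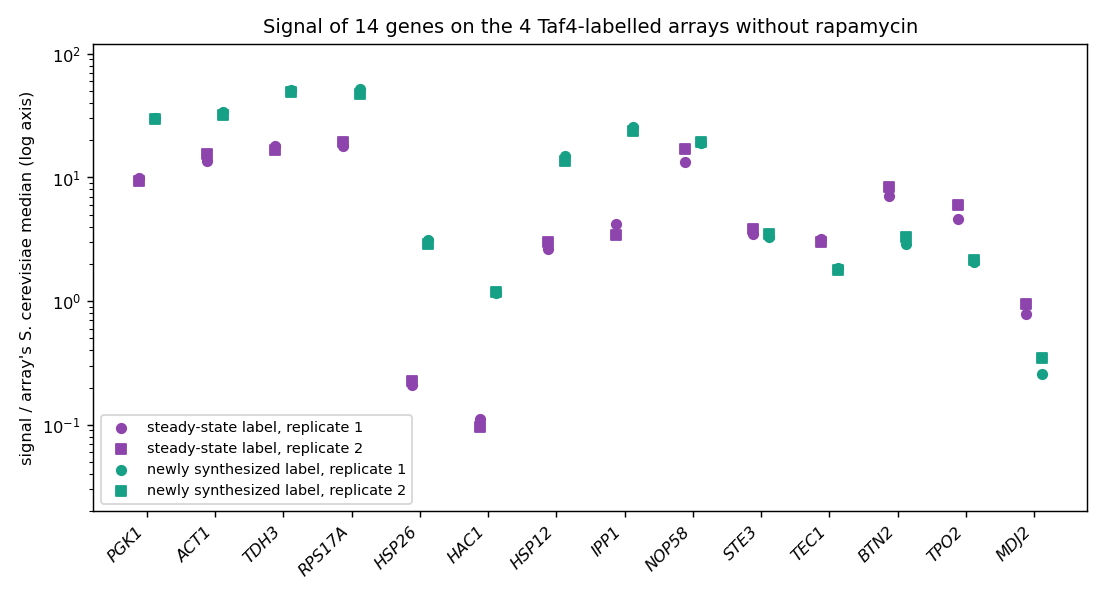
Relative signal (signal divided by the array's S. cerevisiae median, log axis) of 14 genes on each of the 4 arrays, with purple for the steady-state label, green for the newly synthesized label, and circles and squares for replicates 1 and 2. PGK1, ACT1, TDH3, RPS17A, HSP26, HAC1, HSP12 and IPP1 are lower in purple, and TEC1, BTN2, TPO2 and MDJ2 are higher in purple.

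The families known for short-lived messages were spread around the median gene or above it. Ribosome assembly genes, whose products process ribosomal RNA, had 22 lower and 27 higher of 100, with a median of 0.08 that rose to 0.51, 0.41 and 0.62 under the quantile, level and S. pombe scalings. Their median signals were 2.01 and 1.99 on the steady-state-labelled arrays and 2.09 and 2.05 on the others, on the log2 scale. NOP58, a core protein of box C/D snoRNPs, had relative signals of 13.3 and 17.1 against 18.9 and 19.4. Its difference of -0.34 missed the threshold (limma adjusted p = 0.062), and it was 0.85, 0.76 and 0.97 under the other 3 scalings. GAR1, of the box H/ACA snoRNPs, had 10.97 and 12.4 against 19.9 and 19.1, a difference of -0.74 that became 0.46, 0.32 and 0.54.

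Of 80 genes for sequence-specific transcription factors on the array, 60 passed the filter, and 28 of these were higher and 7 lower in the steady-state label. Their median of 0.27 was 0.39, 0.35 and 0.15 under the quantile, level and S. pombe scalings. TEC1, a regulator of filamentous growth, had relative signals of 3.17 and 2.98 in the steady-state label and 1.87 and 1.78 in the newly synthesized label. Its difference of 0.76 (SE 0.11, limma adjusted p = 0.00019) had the same sign in all 4 scalings. UME6, a repressor of early meiotic genes, was not in this list and was named only for its large difference. It had 1.93 and 2.85 against 1.07 and 1.06, a difference of 1.14, while the highest in the list was 1.03. GCN4, the activator of amino acid synthesis genes, went the other way, with 8.40 and 7.53 against 10.8 and 10.9. Its difference of -0.45 (limma adjusted p = 0.0083) turned to 0.43, 0.53 and 0.75 under the other 3 scalings, and its adjusted p was 0.058 without steady-state replicate 2 and 0.051 without newly synthesized replicate 2.

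HAC1, the activator of the unfolded protein response, was the member of that list farthest from its median. Its relative signals were 0.11 and 0.10 in the steady-state label and 1.16 and 1.19 in the newly synthesized label. Both steady-state-labelled signals were at or under those of the brightest a-cell gene on the same array, 0.19 and 0.23, which these alpha cells do not express. Set against those values, HAC1 was at least 5.57-fold lower in the steady-state label, and the fitted size of its difference, -3.50 (limma adjusted p = 3.3e-07), is no exact measure. It passed the filter, which uses the mean of 8 arrays, through the groups where it was brighter. Cyclin and cell cycle genes had 34 of 38 pass the filter, with 15 higher, 1 lower and a median of 0.26, which was 0.53, 0.48 and 0.46 under the other scalings. HO, the mating-type endonuclease kept in that list, stood at 4.62 and 5.23 against 3.41 and 3.17, a difference of 0.58 (limma adjusted p = 0.0017). CLB1, a mitotic cyclin, had 3.97 and 4.05 against 3.41 and 3.40, and its difference of 0.24 missed the threshold (limma adjusted p = 0.14). Under the other 3 scalings CLB1 was called higher, at 0.70, 0.73 and 0.98 (limma adjusted p = 0.0024, 0.0019 and 0.00043).

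Genes for mitochondrial ribosomal proteins stayed near the median gene, with 21 lower and 13 higher of 66 and a median of -0.12 that was 0.046, 0.066 and 0.16 under the other 3 scalings. MRPL36, of the large mitochondrial subunit, had relative signals of 6.83 and 6.95 in the steady-state label against 5.52 and 5.46. Its difference of 0.33 missed the threshold (limma adjusted p = 0.054), but MRPL36 was called higher in 8 of 14 alternatives, with 1.07, 0.96 and 1.22 under the other 3 scalings. MRP8, a gene named with this family, had 3.22 and 3.12 against 6.90 and 6.29, a difference of -1.06 (limma adjusted p = 9.5e-05) that was -0.20 (limma adjusted p = 0.155) with the S. pombe curve. Textbook examples of less stable messages outside these lists gave small differences in the main scaling. STE3, the receptor for a-factor, had 3.50 and 3.86 against 3.30 and 3.47, with 0.12 (limma adjusted p = 0.39). Under the other 3 scalings STE3 was called higher, at 0.56, 0.42 and 0.64 (limma adjusted p = 0.0027, 0.0096 and 0.00097). CDC4, an F-box protein, had 1.31 and 1.28 against 1.40 and 1.51, with -0.17 (limma adjusted p = 0.2).

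Across single genes, the 15 called genes lowest in the steady-state label, among those that have a standard name and a gene-specific probe set, were HSP26, HAC1, YCP4, RPS0B, PST2, HRI1, IPP1, HYR1, VMA8, GTT1, CPR3, CPR5, SRB2, VMA4 and BNA6, with differences from -3.78 to -2.49. HSP26, a small heat shock protein, had relative signals of 0.21 and 0.23 in the steady-state label and 3.12 and 2.88 in the newly synthesized label. The steady-state-labelled signal was above the brightest a-cell gene on replicate 1 only, and HSP26 was at least 13.5-fold lower in the steady-state label with that gene's signal as the floor on replicate 2. The fitted difference was -3.78 (limma adjusted p = 2.2e-05). Like HAC1, HSP26 passed the filter through the groups where it was brighter. IPP1, cytosolic inorganic pyrophosphatase, stood at 4.22 and 3.42 against 25.5 and 24.0, a difference of -2.70. VMA8 and VMA4, subunits of the vacuolar proton pump, differed by -2.60 and -2.53, and CPR3 and CPR5, cyclophilins that help proteins fold, by -2.56 each. GTT1 and HYR1, a glutathione transferase and a peroxidase, differed by -2.58 and -2.66. SRB2, a subunit of Mediator, differed by -2.53 and BNA6, of NAD synthesis, by -2.49. PST2 and YCP4, flavodoxin-like proteins, differed by -2.83 and -3.23, and HRI1 by -2.80. In all 15, both steady-state-labelled arrays were below both others, which the choice of genes required.

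At the other end, by the same rule, stood MDJ2, RAD5, BTN2, TPO2, RAD55, CMR1, PRP16, PRM7, GCD10, CRS5, MNN4, UBA2, UME6, PDE2 and RIB2, with differences from 1.53 to 1.13. The distribution was lopsided, with 654 genes lower and 45 higher by more than 1 on the log2 scale. MDJ2, a mitochondrial J-protein co-chaperone, had relative signals of 0.79 and 0.95 in the steady-state label and 0.26 and 0.35 in the newly synthesized label, a difference of 1.53 (SE 0.16, limma adjusted p = 3.1e-05). Its newly-synthesized-labelled mean was -1.74 on the log2 scale, under -1.50, the lowest mean level among tested protein-coding genes. MDJ2 thus passed the filter through the groups where it was brighter. BTN2, which sorts misfolded proteins, had 7.03 and 8.41 against 2.92 and 3.27, a difference of 1.32. TPO2, a polyamine exporter, had 4.62 and 5.97 against 2.06 and 2.17, a difference of 1.31. Genes of DNA repair were RAD5, at 1.43, and RAD55, at 1.31. PRP16, a splicing helicase, differed by 1.30, GCD10, of the tRNA methyltransferase, by 1.24, UBA2, of the SUMO-activating enzyme, by 1.20 and PDE2, a cAMP phosphodiesterase, by 1.13.

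Of the genes altered in this strain, TAF4 had a signal under the array median, with 0.58 and 0.45 in the steady-state label against 0.51 and 0.44. Its arrays overlapped and the difference was 0.11 (limma adjusted p = 0.6), which became -0.41 (limma adjusted p = 0.0639) with the S. pombe curve. TAF5, not tagged in this genotype, had 2.39 and 1.96 against 1.63 and 1.53, a difference of 0.45 (limma adjusted p = 0.012) whose adjusted p was 0.086 without steady-state replicate 1 and 0.081 without newly synthesized replicate 2. RPL13A, the anchor, had 0.32 and 0.21 against 1.45 and 1.42, a fitted difference of -2.46 (limma adjusted p = 2.2e-05), and its steady-state-labelled signal on replicate 2 was under that of the brightest a-cell gene. RPL13A passed the filter through the groups where it was brighter. TOR1 stood at 0.41 and 0.45 against 0.50 and 0.53, a difference of -0.25 (limma adjusted p = 0.13) that was -0.72 (limma adjusted p = 0.0019) with the S. pombe curve. None of these levels checks the tags, since where each probe set lies relative to a tag is not given. FPR1, altered by fpr1::NAT, was not among the genes named. The mating type could be checked: of the alpha-cell genes, MF(ALPHA)1, the precursor of the pheromone alpha-factor, had 17.0 and 16.5 against 34.3 and 34.5, while the 7 a-cell genes had relative signals from 0.03 to 0.23 on these 4 arrays.

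The families with no set expectation fell on both sides. These families, histones among them, were set in neither the long-lived nor the short-lived class. Histone genes were lower for 9 of 9, with a median of -0.88 that turned to 0.38, 0.45 and 0.64 under the quantile, level and S. pombe scalings. HTA1, histone H2A, had 16.1 and 14.7 against 28.9 and 27.7, a difference of -0.88 that became 0.40, 0.47 and 0.65. Aminoacyl-tRNA synthetases were lower for 16 of 18, with a median of -0.71 that was -0.071, -0.027 and 0.22 under the other 3 scalings. GUS1, glutamyl-tRNA synthetase, had 9.37 and 8.77 against 17.5 and 17.3, a difference of -0.94 that became 0.13, 0.072 and 0.29. Proteasome genes were lower for 22 and higher for 1 of 32, with a median of -0.65 that was -0.28, -0.20 and 0.040 under the other 3 scalings. PRE9, a core proteasome subunit, had 4.53 and 4.33 against 9.45 and 9.56, a difference of -1.10 that was -0.11 (limma adjusted p = 0.401) with the S. pombe curve. Ergosterol synthesis genes were lower for 16 of 23, with a median of -0.74 that was -0.33, -0.36 and -0.10 under the other 3 scalings, and ERG2, a sterol isomerase, had 6.05 and 5.23 against 16.96 and 17.8, a difference of -1.63.

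Cell wall and secreted protein genes were lower for 20 and higher for 2 of 24, with a median of -0.89 that was -0.20, -0.088 and 0.14 under the quantile, level and S. pombe scalings. Amino acid synthesis genes were lower for 29 and higher for 2 of 51, with a median of -0.43 that was -0.28, -0.21 and -0.055 under the other 3 scalings, the last with 19 lower and 17 higher. HOM6, homoserine dehydrogenase, had 5.82 and 5.83 against 14.5 and 14.1, a difference of -1.30 that was -0.16 (limma adjusted p = 0.262) with the S. pombe curve. Heat shock and stress genes were lower for 15 and higher for 2 of 28, with a median of -0.65 that was -0.37, -0.25 and -0.28 under the other 3 scalings. HSP12, a membrane-stabilising stress protein, had 2.63 and 2.98 against 15.04 and 13.48, a difference of -2.35. RNA polymerase subunit genes were lower for 17 and higher for 4 of 31, with a median of -0.34 that turned to 0.18, 0.27 and 0.51 under the other scalings. RPO26, a subunit common to the nuclear polymerases, had 8.22 and 7.66 against 14.4 and 13.99, a difference of -0.84 that became 0.10, 0.12 and 0.35.

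The TFIID, SAGA and Mediator list, which holds the machinery the study addressed, had 20 higher and 9 lower of 49, with a median of 0.18 that was 0.23, 0.22 and 0.064 under the other 3 scalings. SPT15, the TATA-binding protein, had 3.05 and 2.39 against 4.73 and 4.76, a difference of -0.81 (limma adjusted p = 0.00066) that was -0.16 (limma adjusted p = 0.322) with the S. pombe curve. Genes for hexose and nutrient permeases had 9 higher and 5 lower of 21, with a median of 0.26 that was 0.44, 0.42 and 0.44 under the other scalings.

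**Figure D3:**
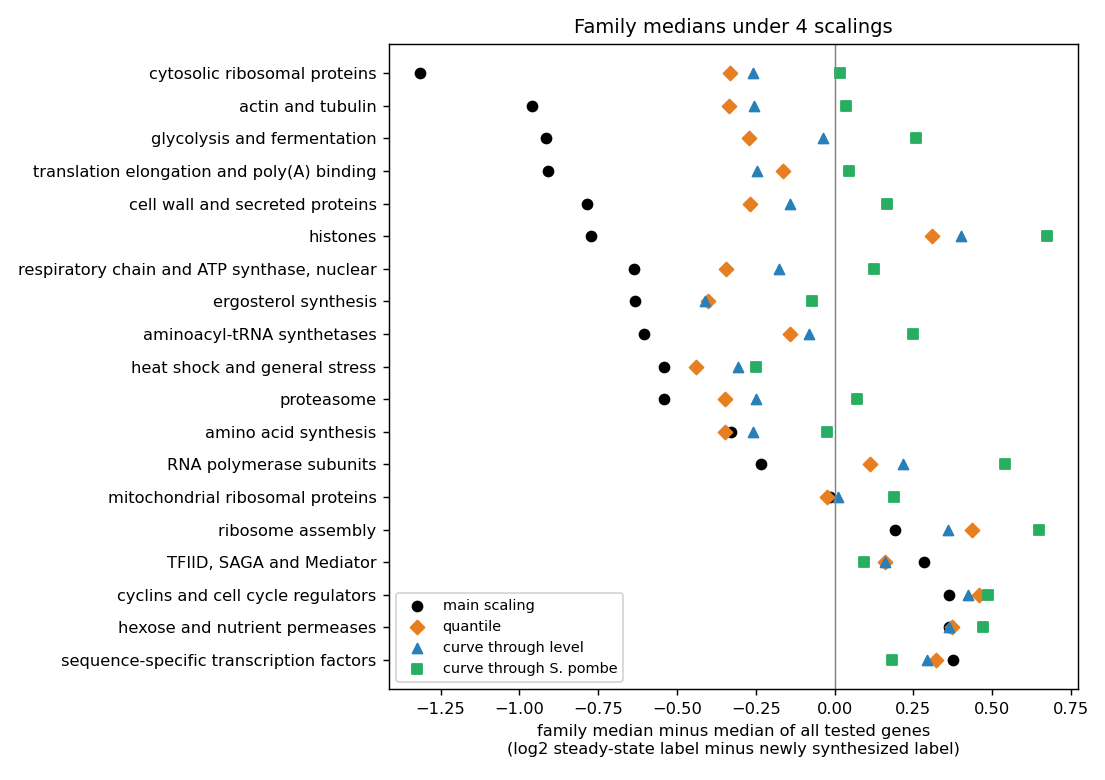
Median of each family minus the median of all tested genes (log2 steady-state label minus newly synthesized label, x axis) in the main scaling and under quantile scaling, a curve through signal level and a curve through the S. pombe probe sets followed by equal S. cerevisiae medians. Ribosomal protein genes move from -1.31 in the main scaling to 0.02 with the S. pombe curve, while ribosome assembly genes move from 0.19 to 0.65.

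The difference ran with how bright a gene was and how long it was. Across 4358 genes with an annotated span, Spearman's rho with the mean log2 level was -0.38, and with the coding span it was 0.48. Span and level themselves had a rho of -0.28. These are descriptions across genes on shared arrays, and genes are not independent replicates. The part that either property has in the difference was not tested.

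Short genes were lower in the steady-state label. The median difference was -0.50 for 472 genes under 500 bases, -0.61 for 1179 genes from 500 bases to under 1000, and -0.04 for 997 genes from there to under 1500. It was 0.17, 0.25 and 0.20 in the 3 longer classes. The genes called lower had a median span of 839 bases, and those called higher 1836, while all tested genes had 1242. The rho with span was 0.46 without the ribosomal protein genes and between 0.35 and 0.44 within quartiles of level. With rapamycin it was 0.29.

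Families of like span still stood apart. The span runs from gene start to end with any intron included, so genes of like span need not have mRNAs of like length. Among genes under 500 bases, 24 ribosomal protein genes had a median of -1.46, 20 respiratory chain genes -0.62 and 24 mitochondrial ribosomal protein genes 0.14. From 500 bases to under 1000, 89 ribosomal protein genes had -1.35, 17 proteasome genes -1.06, 32 mitochondrial ribosomal protein genes -0.36 and 25 ribosome assembly genes -0.52. Among the long genes, 6 aminoacyl-tRNA synthetase genes from 2000 bases to under 3000 had a median of -0.70, where all 618 genes of that class had 0.25 and 23 transcription factor genes 0.45.

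Families of like signal stood apart as well in the middle of the range. Where the mean level was between 2 and 3 on the log2 scale, all 429 genes had a median difference of -0.56. In that range 7 ribosomal protein genes had -1.79, 15 respiratory chain genes -0.69 and 34 ribosome assembly genes 0.19. Above 4, all 174 genes had -1.28 and 98.9% of them were lower, against -1.40 for 102 ribosomal protein genes and -0.79 for 6 histone genes. In that range all members were lower in each of the 5 families with 5 or more members there.

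**Figure D4:**
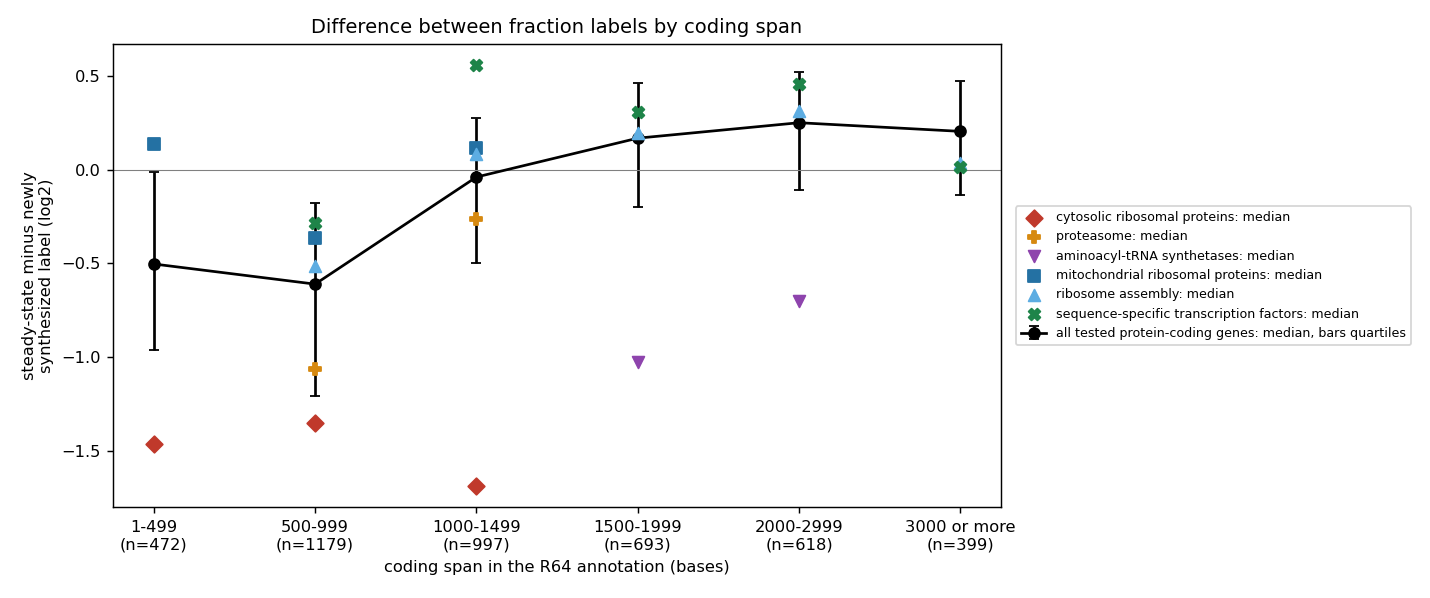
Median difference between the fraction labels (log2, y axis) in 6 classes of coding span (bases, x axis), with bars from the lower to the upper quartile over all tested genes and coloured markers for the medians of 6 families. Ribosomal protein genes lie at -1.46 and mitochondrial ribosomal protein genes at 0.14 in the class under 500 bases.

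The S. pombe spike-in, which carries none of the strain's alleles, gave a like order. Each array was set to its median S. pombe probe set, and of 1397 tested, 584 were lower in the steady-state label, 41.8%, and 363 higher, 26.0%. With signals as deposited the split was 779 and 118. All 12 ribosomal protein probe sets were lower, with a median of -1.57, and so were all 10 for glycolysis and fermentation, with -1.70. Their median signals, on the log2 scale relative to the array's median S. pombe probe set, were 3.89 and 4.03 for ribosomal proteins on the steady-state-labelled arrays against 5.65 and 5.70. Of 38 ribosome assembly probe sets, 13 were lower and 3 higher, with a median of -0.13, and of 7 for the cell cycle, 1 was lower and 5 higher, with a median of 0.63. Bright S. pombe probe sets were lower as a class. The 39 with a mean level above 4 had a median of -1.29, with 87.2% lower. The 50 between 3 and 4 had -1.51, with 92% lower, and all 5 ribosome assembly probe sets among them were lower, with -0.98. Scalings that bend with level were not run for S. pombe, so the order of its families was not tested apart from brightness.

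Single S. pombe genes reached the same sizes. cdc8, which encodes tropomyosin, had relative signals of 1.90 and 1.62 in the steady-state label and 18.6 and 19.4 in the newly synthesized label, a difference of -3.43 (SE 0.23, limma adjusted p = 1.7e-06). adk1, adenylate kinase, had 0.98 and 0.96 against 10.5 and 10.45, also -3.43. gar1, whose budding yeast namesake encodes the snoRNP protein above, differed by -3.24, gcv3 by -3.05, rps102 by -2.90 and ats1 by -2.90. The highest were mam3, with 2.02 and 2.06 against 0.54 and 0.54 and a difference of 1.92, and then abp2 at 1.72, msa1 at 1.70, pap1, a stress-response transcription factor, at 1.61, vps8 at 1.60 and thi5 at 1.57.

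The balance between the species also differed between the labels. The S. cerevisiae median exceeded the S. pombe median by 1.80 and 2.13 on the log2 scale on the steady-state-labelled arrays, and by 0.51 and 0.66 on the newly-synthesized-labelled arrays. The groups did not overlap, and the difference of 1.38 is 2.60-fold. An exact permutation test of 2 arrays against 2 cannot give a two-sided p below 0.333. In the same direction, S. cerevisiae probe sets took 76.0% and 78.2% of all signal on the steady-state-labelled arrays and 57.0% and 58.2% on the others.

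With rapamycin the long-lived S. cerevisiae families were again lower and the short-lived ones near or above the median gene, while the S. pombe probe sets gave few calls. In those arrays 1515 genes were lower, 34.8%, and 796 higher, 18.3%. Ribosomal protein genes had a median of -0.81 there, with 123 lower, glycolysis genes -0.72, actin and tubulin genes -1.01 and transcription factor genes 0.24. The class medians were -0.78 for long-lived and 0.14 for short-lived families. Across genes, Spearman's rho between the differences without and with rapamycin was 0.82, and 1263 genes were lower in both, 508 higher in both and 21 opposite. In S. pombe only 93 probe sets, 6.66%, were lower with rapamycin and 53, 3.79%, higher, and the ribosomal protein median was 0.04. The labels give no rapamycin treatment for the S. pombe cells. Their ribosomal protein medians with rapamycin were 5.40 and 5.03 in the steady-state label and 5.38 and 5.41 in the newly synthesized label. Among the 8 Taf4-labelled arrays, the 2 steady-state-labelled ones without rapamycin therefore stood apart in S. pombe. The trait was not theirs alone: Taf5 newly synthesized replicate 2 with rapamycin, a scan that repeats no Taf4 array, had 4.33. Its S. pombe Spearman's rho was 0.97 and 0.96 with those 2 arrays and 0.85 to 0.92 with the other Taf4-labelled ones.

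**Figure D5:**
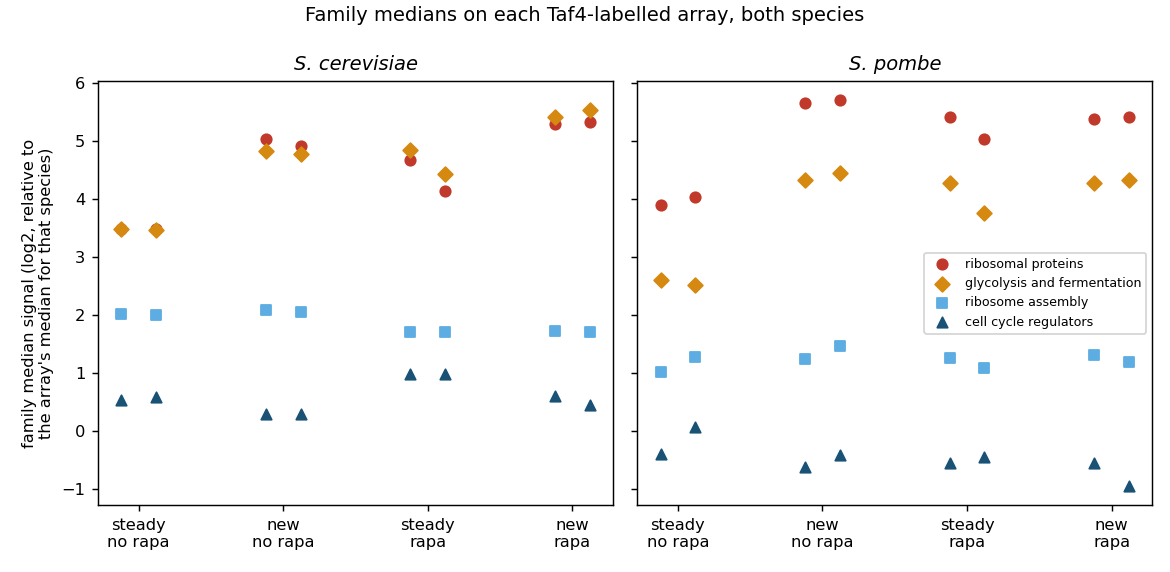
Median signal of 4 gene families on each of the 8 Taf4-labelled arrays (log2, relative to the array's median for that species, y axis), for S. cerevisiae on the left and S. pombe on the right, with the 2 replicates of a group side by side. Ribosomal protein genes of S. pombe sit at 3.89 and 4.03 on the steady-state-labelled arrays without rapamycin and between 5.03 and 5.70 on the other 6.

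The change of the difference between labels with rapamycin was also tested gene by gene. The test of the change itself called 61 genes more negative without rapamycin, 1.40% of those tested, and 19 more positive, 0.436%. Without steady-state replicate 2 the counts were 0 and 0, without newly synthesized replicate 1 they were 4 and 1, and without newly synthesized replicate 2 they were 5 and 0. The unadjusted limma p was under 0.05 for 1137 genes with all arrays, and with the replicate number as a block the calls were 175 and 53. HAC1 differed by -3.50 without rapamycin and by -1.67 with it, where its relative signals were 0.39 and 0.33 against 1.07 and 1.21. YRA1, an RNA export adaptor, differed by -1.74 without rapamycin and by -0.02 with it, and EFG1, of ribosome assembly, by -0.50 and 1.29. The EFG1 difference without rapamycin had a limma adjusted p of 0.012, which was 0.084 without steady-state replicate 2 and 0.145 without newly synthesized replicate 1, and the difference was 0.18 with the S. pombe curve.

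The 1 other distinct scan with a minus-rapamycin title, Taf5 steady-state replicate 2, also carries the TAF4-FRB genotype in its labels. It had a ribosomal protein median of 4.56, closer to the 5.03 and 4.92 of the newly-synthesized-labelled Taf4 arrays than to 3.48. Its glycolysis median of 4.63 was also closer to their 4.82 and 4.76 than to 3.47. Not every family went this way. Its histone median of 3.16 was closer to the 3.53 and 3.33 of the steady-state-labelled arrays than to 4.22 and 3.99. In S. pombe its ribosomal protein median was 5.48. Across genes its Spearman's rho was 0.92 with each newly-synthesized-labelled Taf4 array and 0.88 and 0.85 with the steady-state-labelled ones.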

How the data were processed

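The authors deposited linear signal intensity per probe set from single-channel arrays, processed in Affymetrix Expression Console 1.4.1 per the submitters' processing notes; the algorithm and background correction were not given in any source used here. Each Taf4 column had a 2% trimmed mean near 500.2, so the deposited intensity values were scaled per array. Of 10928 probe sets, 7244 had 1 gene symbol in the platform annotation, 1 had several and 3683 had none and were not used. The probe set with the highest mean was kept for each of 5449 S. cerevisiae genes, arrays were set to their S. cerevisiae median, log2 was taken, the lowest 20% by mean over 8 arrays were left out, and limma 3.58.1 in R 4.3.3 (lmFit, eBayes) was fitted over the 8 Taf4 arrays with 1 mean per group. S. pombe (1746 probe sets) was fitted likewise. p-values were adjusted by Benjamini-Hochberg over all genes tested, at 0.05. Arrays have no read depth: precision is limited by 2 arrays per group. The fits were tested on simulated data. Spans came from the R64 RefSeq annotation, which gives gene start to end with introns and without UTRs. Genes named were the 15 extremes in each direction with non-overlapping arrays, and members among the 4 brightest of each list. TAF4, TAF5, RPL13A and TOR1 were named for the strain. Textbook examples, 6 S. pombe extremes each way, and 4 changes with rapamycin each way were also named. Some were dropped to keep the text short. Members and lists were chosen with earlier results of these data known. Lists of noncoding and mitochondrially encoded RNA had 0 members on the array.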

Additional observations from a re-analysis of the deposited data

Results flagged for a closer look

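For 11 named S. cerevisiae genes the difference between the fraction labels itself differed between the Taf4 arrays without and with rapamycin, by the limma test of that change, at an adjusted p between 0.0066 and 0.05. Over all 4359 tested genes the test called 61 more negative without rapamycin, 1.40%, and 19 more positive, 0.436%. HAC1, EFG1, HSP26, YRA1, SLX5, APL5, SEC39 and VPS8 were named as the 4 largest called changes each way, so the choice fixed their calls. The change is given as the difference without rapamycin minus that with rapamycin, on the log2 scale. It was negative for HAC1, at -1.82 (SE 0.19), EFG1, at -1.79 (SE 0.20), HSP26, at -1.78 (SE 0.35), YRA1, at -1.73 (SE 0.24), HSP12, at -1.45 (SE 0.25), RPL13A, at -1.42 (SE 0.27), and HOR7, a stress-induced membrane protein, at -0.95 (SE 0.21). It was positive for SLX5, a SUMO-targeted ubiquitin ligase subunit, at 1.26 (SE 0.25), APL5, of the AP-3 adaptor, at 1.15 (SE 0.21), SEC39, of vesicle tethering, at 1.09 (SE 0.21), and VPS8, of vacuolar sorting, at 1.08 (SE 0.17). Leaving out each of the 4 arrays without rapamycin in turn ended the call in all 4 repeats for HSP26, HSP12 and HOR7, in 3 for RPL13A, SLX5, APL5, SEC39 and VPS8, in 2 for YRA1 and in 1 each for HAC1 and EFG1. For HAC1 on both steady-state-labelled arrays, and for HSP26 and RPL13A on replicate 2, the signal without rapamycin was no higher than that of the brightest a-cell gene, so the sizes of their changes are not exact. With no filter on low signals, HAC1 alone of the 11 kept its call (limma adjusted p = 0.0474). EFG1 then missed the threshold (limma adjusted p = 0.0502). With equal S. pombe medians the 61 and 19 became 6 and 52, and quantile scaling and the curves were not run for this change. In S. pombe, whose labels give no rapamycin treatment, the difference between labels changed too. Its standard deviation over probe sets was 0.92 without rapamycin and 0.36 with it. The S. pombe ribosomal protein median was -1.57 and 0.04. Whether the 11 changes went with rapamycin or with the arrays was not tested. No cause was tested.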

How the results depend on the processing

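Differences from the median gene rest on 2 arrays per group and on the scaling. Equal S. pombe medians, signals as deposited, and the S. pombe curve alone, which also bends with level, moved the counts of lower and higher genes from 1644 and 984 to 112 and 3624, 363 and 3194, and 13 and 4157; the first 2 shift whole arrays and leave differences from the median gene as they were by construction. Leaving out 1 array gave 1332 to 1544 lower and 631 to 878 higher. For S. pombe, 363 higher became 118 as deposited and 233 with the lowest 40% left out, and 288 to 331 without 1 array. For the change with rapamycin, 61 and 19 became 6 and 52 with equal S. pombe medians, 4 and 1 with no filter, and 0 to 88 and 0 to 26 without 1 array. With the replicate number as a block these were 175 and 53, and the main counts 1649 and 1001, and 581 and 362 in S. pombe. The protocol takes labelled RNA from total RNA, but no label says that equal numbers mark 1 extract. Deviations of same-numbered arrays correlated at 0.10 between the fractions, so the numbers were not taken as pairs.

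The S. pombe curve with equal medians was a setting added after seeing the data. A named gene counted as kept if it stayed on its side of the threshold and, where called, in its direction. Of 73, 55, 54 and 44 were kept under quantile scaling, the level curve and the S. pombe curve with equal medians. In that order, the medians that turned positive were histones 0.38, 0.45 and 0.64, RNA polymerase subunits 0.18, 0.27 and 0.51, mitochondrial ribosomal proteins 0.046, 0.066 and 0.16, and alpha-cell genes 0.52, 0.36 and 0.57. Glycolysis turned to 0.016 and 0.23 with the curves. With the S. pombe curve only, elongation turned to 0.016, respiratory chain to 0.094, actin and tubulin to 0.0065, proteasome to 0.040, tRNA synthetases to 0.22 and cell wall to 0.14. Genes that turned were ACT1 (0.0907, 0.0797, 0.27), RPS31 (0.022, 0.50, 0.59), TEF2 (0.10, 0.49, 0.61), CDC19 (0.12, 0.42, 0.58), ATP1 (0.27, 0.18, 0.39), NOP58 (0.85, 0.76, 0.97), GAR1 (0.46, 0.32, 0.54), GCN4 (0.43, 0.53, 0.75), HTA1 (0.40, 0.47, 0.65), RPO26 (0.10, 0.12, 0.35), GUS1 (0.13, 0.072, 0.29) and MF(ALPHA)1 (0.20, 0.31, 0.49). RPS17A turned to 0.054 and 0.21 with the curves, and TDH3 to 0.10 and EFG1 to 0.18 with the S. pombe curve. TAF4, uncalled throughout and so counted as kept, changed sign to -0.41 with the S. pombe curve. The cause was not tested.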
